A study of Mus musculus with 40 samples.

Results

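One closed-head injury (1xCHI) was compared with sham injury 24 h later, in 8 of the 40 bulk RNA-seq samples of left somatomotor cortex. The members were chosen by their labels: the 4 samples labelled 1xCHI at 24 h (sample numbers 17, 18, 26 and 28) and the 4 labelled Sham (6, 20, 35 and 39). Both groups were female 3xTg-AD mice on C57BL/6J, aged 2 to 4 months, and each sample was a separate animal. This model carries mutant human APP and MAPT transgenes, driven by a neuronal Thy1 cassette. The injured mice received a single weight drop onto the intact skull under isoflurane. The shams were anaesthetized without the drop. The study combined shams matched to several times and numbers of anaesthesia exposures, and the labels place these 4 at time 0. Time since anaesthesia and injury therefore cannot be told apart here. Injured and sham animals alike were transgenic, and no wild-type cortex was compared.

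A mild closed-head injury moves the brain within the skull and strains axons, vessels and glia without an open lesion. Neurons answer strong activity within minutes by transcribing immediate early genes, whose messages decay within hours, and the adrenal response to stress reaches the brain as glucocorticoid. Astrocytes raise intermediate filaments such as GFAP over a day or more, while microglia and vessel cells respond with cytokines, complement and interferon-stimulated genes. A sample taken 24 h after the drop asks which of these responses remain.

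The 8 samples held 16976471 to 27859547 summed estimated counts, and the groups overlapped in depth. Neuronal, astrocyte, microglial and oligodendrocyte markers were present in every sample, and their summed levels overlapped between the groups. Striatal markers varied widely within both groups. Their sum was 32.6 to 331 CPM (counts scaled to the library total) in sham and 45.1 to 342 CPM in 1xCHI, with sham 39 and injured 26 far above the rest. The 5 markers of infiltrating leukocytes, S100a8, S100a9, Cd3e, Ccr2 and Ly6c2, summed to at most 1.79 CPM in any sample. In bulk RNA, fewer cells of a type and less RNA per cell cannot be told apart. On the first principal component, which held 41.6% of the variance, injured samples 17 and 18 lay at -38.6 and -25.4, while injured 26 lay at 23.8 among shams 35 and 39 at 24.7 and 22.2. Sham 6 lay at -5.47, close to sham 20 at -3.28, and injured 28 at 2.11. Samples numbered 1 to 18 (17, 18 and sham 6) were also compared apart from those numbered 19 to 40. With 1 sham in the former range, that difference rests on sham 6. The position of that split came from earlier results, and no source calls it a batch.

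No gene passed the test for 1xCHI at 24 h against sham. Of 15224 features tested with edgeR, 0 (0%) had an adjusted p under 0.05, and DESeq2 also called 0. The smallest adjusted p was 0.191, for the predicted gene Gm34304, which averaged 0.56 CPM in sham and 1.45 CPM after injury and is named after its values were seen. At an unadjusted p under 0.05 there were 916 features (6.02%), of which 540 lay higher after injury (3.55%) and 376 lower (2.47%). The 4 injured samples lay entirely above the 4 shams for 399 features (2.62%) and entirely below for 374 (2.46%). Most estimates were small: 80% of the log2 fold changes lay between -0.24 and 0.28, with a median standard error of 0.15. An absolute log2 fold change above 1 was estimated for 32 features. In counts simulated with the same group sizes and each gene's estimated spread, 48% of genes changed 1.5-fold and 77% of those changed 2-fold were recovered. There were 6 false calls and 1 wrong sign. Changes of 1.5-fold or smaller in single genes were thus often not detectable, and some 2-fold changes were not. Each gene was drawn independently, without the differences that many genes share within a sample, so these shares may be too high for the real samples.

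**Figure D1:**
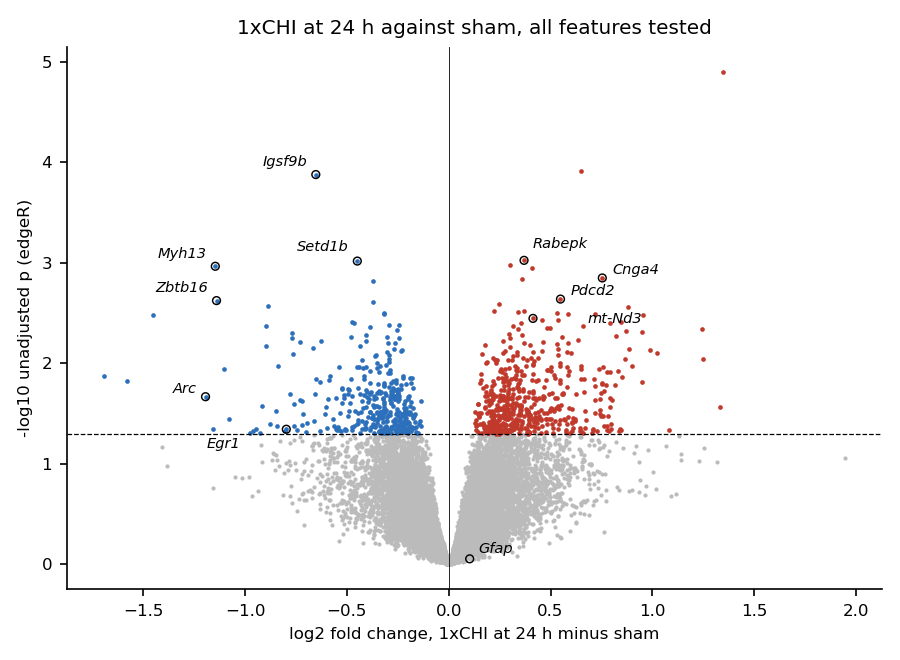
Log2 fold change (1xCHI at 24 h minus sham) against -log10 of the unadjusted edgeR p for each of the 15224 features tested. Red and blue points are the 540 higher and 376 lower features above the dashed line at an unadjusted p of 0.05, none passes the adjusted threshold, and circled genes are named in the text.

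The first gene by p among those named by the rule was Igsf9b, an adhesion molecule of inhibitory synapses (chromosome 9, 27299204 to 27357546, plus strand, GRCm38). It was measured at 202, 196, 212 and 221 CPM in shams 6, 20, 35 and 39, and at 141, 111, 129 and 148 CPM in injured 17, 18, 26 and 28. The groups did not overlap, every injured sample lying below every sham. Its log2 fold change was -0.65 (SE 0.15, adjusted p = 0.673), and the difference was -0.69 among samples 1 to 18 and -0.60 among 19 to 40.

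Zbtb16, a zinc-finger repressor induced by glucocorticoid (chromosome 9, 48654297 to 48836222, minus strand), had 1 of the lowest estimates among the named genes. Shams held 44.1, 53.9, 72.9 and 43.9 CPM, and injured samples 25.6, 16.6, 30.5 and 24.7 CPM. The highest injured sample lay below the lowest sham. The log2 fold change was -1.14 (SE 0.34, adjusted p = 0.703), with differences of -1.10 and -1.02 in the lower and higher sample numbers.

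The next low genes are described by what each is known to do. Setd1b, a histone H3 lysine 4 methyltransferase, averaged 45.9 ± 3.46 CPM in sham and 33.6 ± 1.75 CPM after injury (SD, n = 4 each). Jarid2, a partner of the Polycomb repressive complex, went from 40.2 to 33.9 CPM, and Lin54, the DNA-binding subunit of the DREAM complex, from 15.7 to 11.4 CPM. Etv3, an ETS-family repressor, had a log2 fold change of -0.37. None of these groups of 4 overlapped, and none passed the adjusted test.

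The other genes lowest by the same rule were of mixed function. Myh13, a myosin heavy chain of extraocular muscle, was scarce at 1.84 CPM in sham and 0.83 CPM after injury, a log2 fold change of -1.15 (SE 0.32). Klhl42, a substrate adaptor of a cullin ubiquitin ligase, and Afap1, an actin-filament partner, had log2 fold changes of -0.37 and -0.32. Cerk, the ceramide kinase, was at -0.32 and Arhgap23, a GTPase-activating protein, at -0.29. Sowahb, an ankyrin-repeat protein, was at -0.48.

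On the higher side, Rabepk, a kelch-motif effector of the endosomal GTPase Rab9 (chromosome 2, 34777556 to 34799912, minus strand), came first by the same rule. It was measured at 19.8, 16.2, 17.0 and 16.5 CPM in sham and 25.0, 23.5, 20.7 and 20.4 CPM after injury. All injured samples lay above all shams, injured 28 by a narrow margin over sham 6, and the log2 fold change was 0.37 (SE 0.10, adjusted p = 0.703).

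Both Plpp1 and Sptlc1, which take part in lipid metabolism, lay higher, whereas Cerk, above, lay lower. Plpp1, a phospholipid phosphatase, held 10.4 to 11.8 CPM in sham and 13.1 to 15.8 CPM after injury, a log2 fold change of 0.41 (SE 0.11). Sptlc1, a subunit of the enzyme that begins sphingolipid synthesis, went from 24.6 to 29.3 CPM with a log2 fold change of 0.25. Neither passed the adjusted test.

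Nt5c, a cytosolic nucleotidase, held 18.8 to 23.4 CPM in sham and 24.4 to 35.3 CPM after injury. Its log2 fold change was 0.50 (SE 0.16), and injured 17 and 18 were the highest. Pdcd2, a chaperone of ribosomal protein assembly, was at 0.55, and Wdr55, a WD-repeat protein of ribosomal RNA processing, at 0.36. Eid2, an inhibitor of the acetyltransferase EP300, was at 0.37.

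Signalling genes on this side included Gpr27, an orphan receptor, at a log2 fold change of 0.30 and Ppp3cc, a catalytic subunit of the phosphatase calcineurin, at 0.22. Cnga4, a subunit of the olfactory cyclic-nucleotide-gated channel, and Spa17, a protein first described in sperm, were both scarce, at 1.08 and 1.26 CPM in sham, with log2 fold changes of 0.75 and 0.66. All 24 of these genes kept the same sign within both ranges of sample numbers, which non-overlap requires. Because they were chosen for small p and non-overlap, neither the separation nor the agreement between the ranges is a test.

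**Figure D2:**
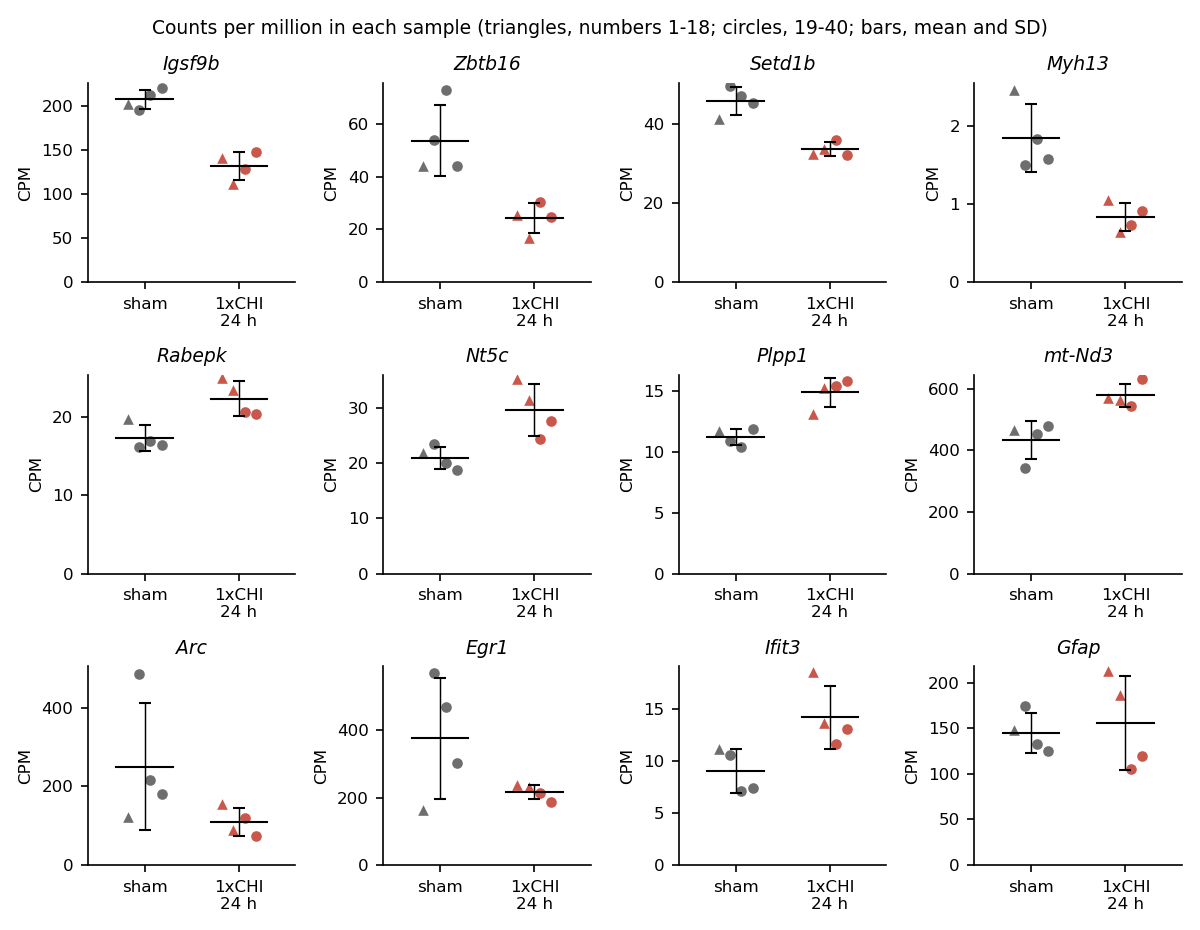
CPM (vertical axes, from 0) in each sham (grey) and 1xCHI 24 h (red) sample for 12 genes, with triangles for samples numbered 1 to 18, circles for 19 to 40, and bars for the mean and SD. For Igsf9b the injured samples sit at 111 to 148 CPM, all below the shams at 196 to 221 CPM, while for Gfap, at 105 to 213 CPM after injury and 125 to 175 CPM in sham, the groups overlap.

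These genes also differed in length. The 12 higher genes had longest annotated transcripts of 348 to 2968 bases and the 12 lower genes of 3900 to 16144 bases, against a median of 3357 bases over all features tested. Across all features, the median log2 fold change stepped down from 0.18 in the shortest of 5 equal length bins to 0.06, 0.01, -0.05 and -0.13 in the longest. Per sample, the shortest bin lay 0.28 and 0.22 above the sham mean in injured 17 and 18, 0.12 in injured 28 and 0.02 in injured 26. The shams lay between -0.04 and 0.06. The trend was thus large in 2 of the 4 injured animals and slight in injured 26. Less this trend, Igsf9b was at -0.42, Zbtb16 at -1.07, Setd1b at -0.29 and Rabepk at 0.34. Its part in the results was otherwise not tested.

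**Figure D3:**
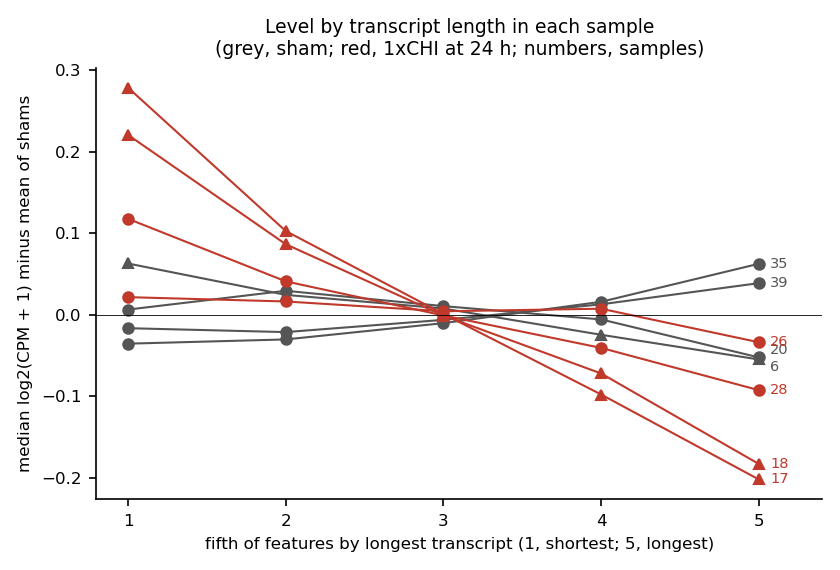
Median log2(CPM + 1) minus the mean of the 4 shams (vertical axis) over 5 equal bins of features by longest transcript (horizontal axis, shortest to longest), one line per sample, grey for sham and red for 1xCHI at 24 h. Injured 17 and 18 slope from 0.28 and 0.22 in the shortest bin to -0.20 and -0.18 in the longest, while injured 26 stays between 0.02 and -0.03.

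Over the 40 gene lists examined, 802 distinct members were tested and 0 passed the adjusted threshold. Of the 802, 83 had an unadjusted p under 0.05, against 6.02% of all features. Most of these were 11 mitochondrial genome, 22 nuclear respiratory chain, 12 cytosolic ribosomal, 13 mitochondrial ribosomal and 8 proteasome genes, described below with their transcript lengths. In 24 of the lists no member reached an unadjusted p under 0.05. The median log2 fold change over all features was 0.01.

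Estimates for most respiratory chain genes lay above 0, and the size differed between animals and with transcript length. All 13 protein genes of the mitochondrial genome, which encode core subunits of the chain, had estimates above 0 (0.23 to 0.41, median 0.34), and 11 of the 13 had an unadjusted p under 0.05, against 3.55% of all features higher at that level. For 7 of the 13 the groups did not overlap, against 2.62%. mt-Nd3, a complex I subunit (chromosome M, 9459 to 9806), held 465, 341, 452 and 477 CPM in sham and 571, 564, 545 and 631 CPM after injury. Every injured sample exceeded every sham, at a log2 fold change of 0.41 (SE 0.13, adjusted p = 0.703). mt-Co1, the catalytic subunit of cytochrome oxidase, averaged 17100 CPM in sham and 20030 CPM after injury, but sham 20 at 19340 CPM lay above injured 26 at 17350 CPM. The share of all counts on mitochondrial transcripts was 6.09 to 6.89% in sham and 8.19, 8.27, 6.63 and 8.41% in injured 17, 18, 26 and 28.

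Of the nuclear subunits of the chain, 79 of 84 estimates were above 0, with 22 of 84 higher at an unadjusted p under 0.05, 0 lower, and a median of 0.25. Ndufs5, an accessory subunit of complex I, held 58.3, 46.9, 52.2 and 53.4 CPM in sham and 93.0, 80.5, 54.8 and 65.9 CPM after injury. Injured 17 and 18 were far above the shams, and injured 26 lay within their range. The mean log2 CPM of the nuclear subunits, less the sham mean, was 0.46, 0.29, 0.0003 and 0.17 in injured 17, 18, 26 and 28 and -0.07 to 0.08 in sham, so injured 26 did not stand above the shams. Less the trend over length described above, the median was 0.06 for the mitochondrial genome and 0.03 for the nuclear subunits. Not every subunit had the same sign. Atp5b, the beta subunit of ATP synthase and the most abundant, was at -0.05 and Sdha, the flavoprotein of complex II, at -0.12.

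Genes of protein synthesis and turnover lay on the same side. Of 87 cytosolic ribosomal protein genes 12 were higher at an unadjusted p under 0.05 (3.55% of all features) and 0 lower (2.47%), with a median of 0.30, and 86 estimates were above 0. Rps29, a small-subunit protein, averaged 87.0 ± 23.4 CPM in sham and 127 ± 24.7 CPM after injury (SD, n = 4 each), with sham 20 alone at 52.2 CPM. Rpl4, the most abundant member, had a log2 fold change of 0.15. For mitochondrial ribosomal proteins 13 of 78 were higher (median 0.18), among them Mrps5 at 0.18, and for proteasome subunits 8 of 37 (median 0.14), with Psma5 at 0.20 and Psmd2 at -0.14.

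Transcript length moved with these lists. All 13 mitochondrial genome genes, 78.6% of the nuclear respiratory subunits, 79.3% of the cytosolic ribosomal proteins, 51.3% of the mitochondrial ribosomal proteins and 51.4% of the proteasome subunits lay in the shortest length bin. Less the length trend, the medians of the last 3 lists were 0.09, 0.06 and 0.01. Among samples 19 to 40 alone the mitochondrial genome median was 0.30, but that of the nuclear subunits was 0.09 and that of the cytosolic ribosomal proteins 0.10.

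**Figure D4:**
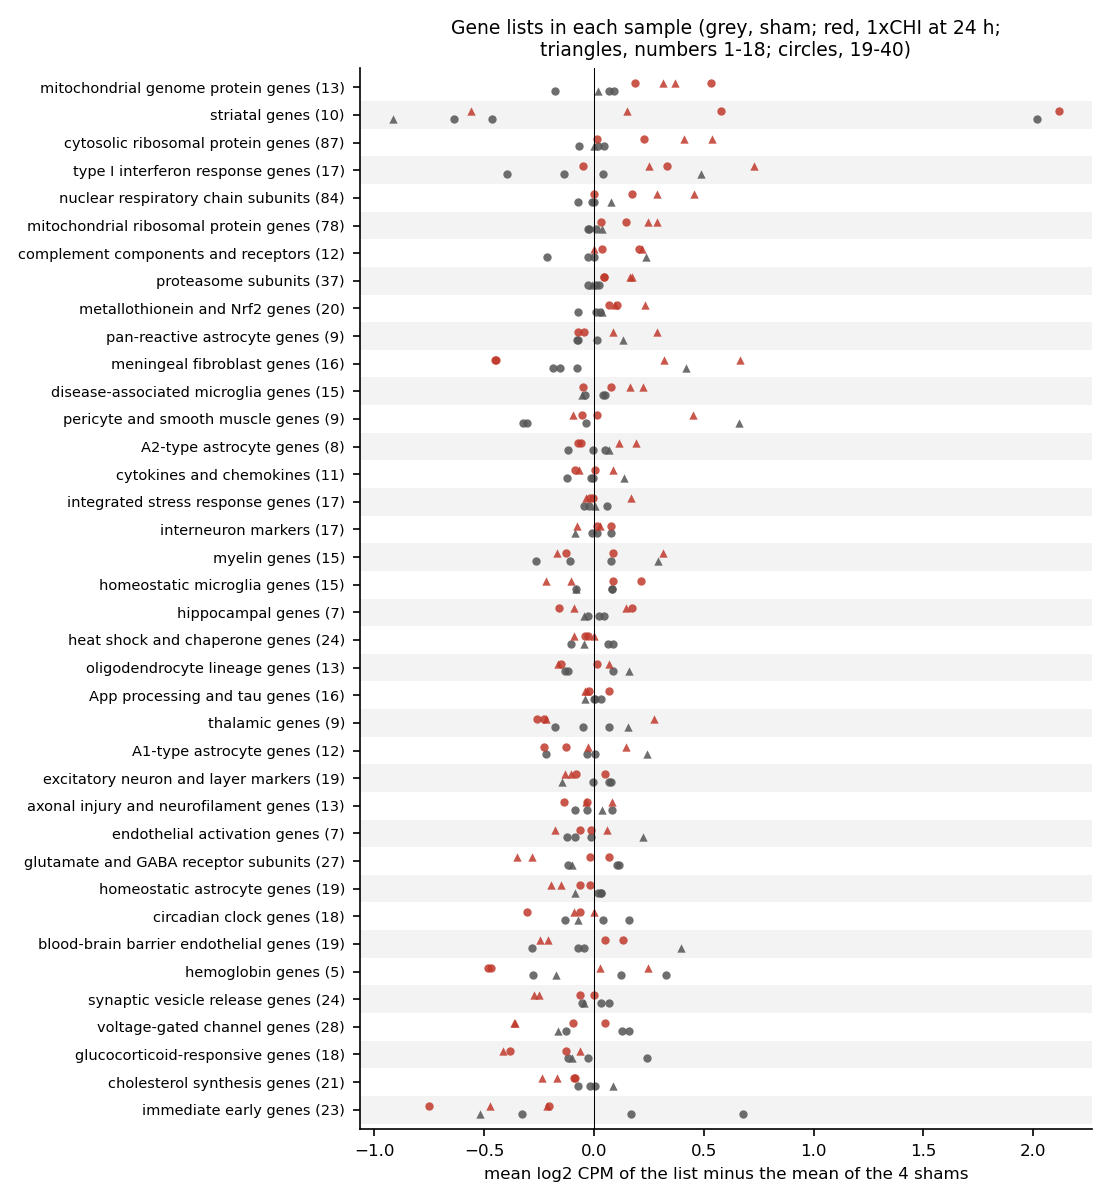
Mean log2 CPM of each gene list minus the mean of the 4 shams (horizontal axis) for each sham (grey) and 1xCHI 24 h (red) sample, with the number of tested members in brackets, for lists with 5 or more; triangles are samples numbered 1 to 18 and circles 19 to 40. The mitochondrial genome list lies at 0.19 to 0.53 in the injured samples and at -0.18 to 0.09 in sham, whereas striatal genes stand at 2.12 in injured 26 and 2.02 in sham 39.

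Immediate early genes, the transcription factors and effectors of recent neuronal activity, had the lowest median of any list, -0.46, with 21 of 23 estimates below 0. Its median difference was 0.13 among samples 1 to 18 and -0.61 among 19 to 40, and the only sham among the former is sham 6, the lowest sham for this list at -0.52. Arc, Egr3, Fosl2, Egr1 and Bdnf, 5 of the 23, were lower at an unadjusted p under 0.05, against 2.47% of all features. Egr3, Fosl2 and Bdnf are named after their values were seen. Arc, which encodes a synaptic protein (chromosome 15, 74669083 to 74672570, minus strand), held 122, 486, 215 and 180 CPM in sham and 156, 88.8, 121 and 73.7 CPM after injury. Sham 20 was far above the other samples, and sham 6 lay within the injured range. The log2 fold change was -1.19 (SE 0.49, adjusted p = 0.703), with -0.05 among samples 1 to 18 and -1.50 among 19 to 40.

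Egr1, a zinc-finger transcription factor, held 164, 570, 468 and 302 CPM in sham and 236, 230, 212 and 187 CPM after injury. Its shams thus spread on both sides of the injured samples, and the difference was 0.50 in samples 1 to 18 and -1.11 in 19 to 40. Egr3, a relative of Egr1, was at -0.59, Fosl2, an AP-1 subunit, at -0.72, and the neurotrophin Bdnf at -0.39. Jund, an AP-1 subunit expressed at rest, was at 0.17. For 15 of the 23 genes sham 20 was the highest of the 8 samples, and without it the list's median was -0.20. No gene of the list had groups that did not overlap.

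Of 18 glucocorticoid-responsive genes, Zbtb16 and Per1 were lower at an unadjusted p under 0.05, against 2.47% of all features, and the list's median was -0.18. Per1, a clock gene that glucocorticoid also induces and that is named after its values were seen, held 99.2, 150, 84.2 and 109 CPM in sham and 102, 86.9, 67.9 and 50.7 CPM after injury. Klf9, a Kruppel-like factor, was at -0.12 and Mt1, a metallothionein, at 0.34, neither apart from the spread. Of 18 clock genes 14 estimates were below 0 (median -0.13), and Per1 and Cry2 were lower at an unadjusted p under 0.05, against 2.47% of all features. Cry2, a repressor of the cycle, went from 141 to 118 CPM without overlap (log2 fold change -0.26), and Dbp, an output activator, was at 0.36.

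No glial gene passed the adjusted test, and the astrocyte and microglial lists had medians between -0.12 and 0.10. Gfap, the astrocyte intermediate filament, held 148, 175, 133 and 125 CPM in sham and 213, 186, 105 and 119 CPM after injury. Injured 17 and 18 lay above every sham and injured 26 and 28 below every sham, and the log2 fold change was 0.10 (SE 0.67, adjusted p = 0.966). None of the 9 pan-reactive astrocyte genes tested reached an unadjusted p under 0.05 (median 0.10), with Hspb1, a small heat shock protein, at 0.32 and Osmr, the oncostatin M receptor, at -0.25. Of 12 genes of the A1 type, Srgn, a secretory-granule proteoglycan, was higher at that level, 1 of 12 against 3.55% of all features. Srgn held 4.41 CPM in sham and 6.38 CPM after injury (log2 fold change 0.53). It was among 2 of the 12 that lay higher without overlap, against 2.62%. Of 8 genes of the A2 type none reached an unadjusted p under 0.05, with S100a10, a calcium-binding protein, at 0.23. Among homeostatic astrocyte genes, the glutamate transporter Slc1a2 was at -0.36, and 0 of 19 reached that level. S100b, a calcium-binding astrocyte protein, held 103, 121, 106 and 112 CPM in sham and 136, 127, 122 and 141 CPM after injury. All injured samples lay above all shams (log2 fold change 0.25), and 2 other genes of the list lay lower without overlap. Over all features these shares were 2.62% higher and 2.46% lower.

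Microglial lists were close to 0: 15 homeostatic genes had a median of 0.00 and 15 disease-associated genes 0.09, and no member of either reached an unadjusted p under 0.05. Aif1, the microglial marker also called Iba1, held 3.07 to 3.65 CPM in sham and 4.65, 5.02, 2.62 and 5.97 CPM after injury, with injured 26 below every sham (log2 fold change 0.46, SE 0.38). Trem2, a lipid-sensing receptor, was at 0.34, C1qb, a complement subunit, at 0.17 and Itgam, the integrin CD11b, at -0.25.

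Cytokine messages were mostly below the filter. Of 25 cytokines and chemokines 11 could be tested, and Il1a, Il1b, Il6, Tnf, Ccl2, Ccl3, Ccl4, Ccl5, Ccl7, Ccl12, Cxcl1, Cxcl2, Cxcl10 and Lif could not. Tgfb2, a growth factor of glia and vessels, was lower at an unadjusted p under 0.05, 1 of 11 against 2.47% of all features. It went from 9.15 to 7.01 CPM (log2 fold change -0.38) without overlap, again 1 of 11, against 2.46% of all features. Cx3cl1, the neuronal chemokine that microglia sense, was at -0.14 and Il18, an inflammasome cytokine, at 0.15. Lyz2, a lysozyme of myeloid cells, was the 1 of 12 leukocyte markers that could be tested, at 3.01 to 3.82 CPM in sham and 2.58 to 8.83 CPM after injury.

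Type I interferon-stimulated genes had a median of 0.27, with 13 of 17 estimates above 0. Their mean, less the sham mean, was 0.73, 0.25, -0.05 and 0.33 in injured 17, 18, 26 and 28 and -0.40 to 0.49 in sham, with sham 6 above 3 of the 4 injured samples. Ifit3, an antiviral effector, held 11.2, 10.6, 7.15 and 7.38 CPM in sham and 18.6, 13.7, 11.6 and 13.1 CPM after injury. All injured samples lay above all shams, at a log2 fold change of 0.64 (SE 0.31, adjusted p = 0.703). Ifit3 was the only member of the list at an unadjusted p under 0.05, 1 of 17 against 3.55% of all features higher at that level. It was also the only member higher without overlap, 1 of 17 against 2.62%. Ifit2, its relative, was at -0.33 and Stat2, a signal transducer of the pathway, at 0.13.

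Most lists of neuronal genes had medians below 0, and the interneuron markers had 0.02. For voltage-gated channels 26 of 28 estimates were below 0 (median -0.16) and none reached an unadjusted p under 0.05. The channel genes were long, with a median longest transcript of 8296 bases, and less the length trend their median was -0.04. Among synaptic vesicle genes, 2 of 24 were lower at that level, against 2.47% of all features, among them the calcium sensor Syt2 at -0.55, named after its values were seen. Rab3a, a vesicle GTPase, was at 0.16.

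Receptor subunits had a median of -0.11 with 0 of 27 at an unadjusted p under 0.05, Gria2 of the AMPA receptor at -0.08 and Grik3 of the kainate receptor at -0.43. Rbfox3, the nuclear marker NeuN, averaged 323 CPM in sham and 367 CPM after injury (log2 fold change 0.19, SE 0.11). Camk2a, the kinase of excitatory neurons, was at -0.18 and Gad1, which makes GABA, at -0.26. Of 13 genes of axonal injury none reached that level, Uchl1, a neuronal hydrolase, at 0.18 and Nefl, the light neurofilament, at -0.12. Of the thalamic list, Plekhg1 was lower at an unadjusted p under 0.05 (log2 fold change -0.42), 1 of 9 against 2.47% of all features.

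Myelin genes were near 0, Mbp, the basic protein of myelin, averaging 2501 ± 419 CPM in sham and 2611 ± 518 CPM after injury (SD, n = 4 each). Pdgfra, the receptor that marks oligodendrocyte precursors, held 42.1 to 47.9 CPM in sham and 30.6 to 41.4 CPM after injury without overlap (log2 fold change -0.37), the only 1 of 13 lineage genes at an unadjusted p under 0.05, against 2.47% of all features lower at that level. Gpr17, a receptor of maturing precursors named after its values were seen, was the other member without overlap (-0.22), 2 of 13 against 2.46%.

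Vessel genes were high in sham 6. The 19 blood-brain barrier genes had a median of -0.13, and none reached an unadjusted p under 0.05. Their mean, less the sham mean, was 0.40 in sham 6 and -0.28 to -0.05 in the other shams. The median difference was -0.56 among samples 1 to 18, where sham 6 is the only sham, and 0.26 among 19 to 40. Cldn5, the endothelial tight junction protein, held 37.2 CPM in sham 6, 20.5 to 22.5 CPM in the other shams and 26.4 to 34.9 CPM after injury. Vwf, a clotting factor stored in endothelium, held 30.6 CPM in sham 6 and 10.1 to 14.4 CPM in the other 7 samples. The scaffold Tjp1 was at -0.24 and Plvap, a protein of fenestrated vessels, at 0.28. Ptgds, a prostaglandin synthase of the meninges, held 571 to 864 CPM in sham and 1024, 1051, 541 and 464 CPM after injury, again high in injured 17 and 18.

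Of 24 heat shock genes, Dnajb1, a co-chaperone of HSP70, was lower at an unadjusted p under 0.05 (54.5 to 46.0 CPM, log2 fold change -0.25), 1 of 24 against 2.47% of all features, and Hspa8, the constitutive HSP70, was at -0.08. Mt3, the neuronal metallothionein, held 111 to 160 CPM in sham and 141 to 243 CPM after injury (log2 fold change 0.49). The 20 metallothionein and Nrf2 genes, which answer metals and oxidants, had a median of 0.14 with none at that level, and their mean lay at 0.07 to 0.23 in the injured samples and -0.07 to 0.04 in sham. Of these genes 50% lay in the shortest length bin, and less the length trend their median was -0.0071. Of 21 cholesterol synthesis genes 17 estimates were below 0 (median -0.19) and 0 reached that level. The groups did not overlap for 4 of the 21, all lower, against 2.46% of all features, among them Srebf2, the transcription factor of the pathway, at -0.25 and Idi1, an isomerase of it, at -0.27, both named after their values were seen. The mean log2 CPM of the list, less the sham mean, was -0.24 to -0.09 in the injured samples and -0.07 to 0.09 in sham, also without overlap. Its median was -0.05 among samples 19 to 40. Hmgcs1, a synthase early in the pathway, was at -0.19.

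Of 16 genes of App processing and tau, Psen2, a gamma-secretase subunit, was higher at an unadjusted p under 0.05 (11.4 to 14.0 CPM, log2 fold change 0.30), 1 of 16 against 3.55% of all features. App was at -0.10 and Bace1, the beta-secretase, at -0.18. The human MAPT transgene averaged 23.1 ± 7.38 CPM in sham and 24.8 ± 15.4 CPM after injury (SD, n = 4 each), with 13.1 and 10.3 CPM in injured 17 and 18 and 40.6 and 35.3 CPM in 26 and 28. Ppp1r1b, the striatal phosphoprotein DARPP-32, held 250 CPM in sham 39 and 295 CPM in injured 26 against 53.0 to 113 CPM in the other samples.

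The remaining lists held no such gene. No member of the complement (12 tested, median 0.14), excitatory neuron (19, -0.10), interneuron (17, 0.02), meningeal (16, 0.10), pericyte (9, 0.08), endothelial activation (7, -0.11), choroid plexus (4, 0.10), hemoglobin (5, -0.13), hippocampal (7, -0.02) or integrated stress response (17, 0.03) lists reached an unadjusted p under 0.05. Striatal genes (10, median 0.33) had none either.

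Against the same injury at earlier times, 1xCHI at 24 h gave 0 calls in edgeR in either comparison (0% each), with 3 samples at each earlier time. Against 30 min, the smallest adjusted p was 0.07, 445 features were higher at 24 h at an unadjusted p under 0.05 (2.92%) and 538 lower (3.53%), and DESeq2 called 8. Of the 18 glucocorticoid-responsive genes, 13 were lower at 24 h than at 30 min at that level, with a median of -0.80, and 12 of the 23 immediate early genes were, with a median of -0.82. The immediate early mean stood at 0.89 and 0.87 above the sham mean in 30 min samples 13 and 14 but at -0.46 in sample 27, within the 24 h range of -0.75 to -0.20, so the difference rested on 2 of the 3 samples. The glucocorticoid-responsive mean was 0.46 to 0.55 in the 3 samples at 30 min and -0.41 to -0.06 at 24 h, without overlap. Tsc22d3, a glucocorticoid-induced leucine zipper protein named after its values were seen, averaged 109 CPM at 30 min (log2 fold change of 24 h over 30 min -0.80, SE 0.17, adjusted p = 0.163). Of 17 interferon-stimulated genes 7 were higher at 24 h (median 0.48), with Ifit3 at 7.21 to 8.44 CPM at 30 min. Striatal markers moved with this comparison too, 6 of 10 higher at 24 h with a median of 1.40, and their part in it was not tested. Without the 30 min sample 27, edgeR called 96 features.

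Against 4 h, the smallest adjusted p was 0.599, and 263 features were higher at 24 h (1.73%) and 416 lower (2.73%) at an unadjusted p under 0.05. Gfap held 332, 204 and 230 CPM at 4 h, so that every 4 h sample lay above injured 18, 26 and 28, while injured 17 at 213 CPM lay above the lowest of them. The log2 fold change of 24 h over 4 h was -0.71 (adjusted p = 1.00). Among astrocyte lists, 3 of 9 pan-reactive genes (median -0.71), 3 of 12 of the A1 type (-0.44) and 5 of 8 of the A2 type (-0.66) were lower at 24 h. Of 16 meningeal genes 6 were lower (-0.85). Meningeal Ptgds held 3557, 1037 and 514 CPM at 4 h, and the part of meningeal tissue in the astrocyte values was not tested.

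No gene was called between the second injury and the first at 24 h. With 2xCHI at 24 h against 1xCHI at 24 h, 3 samples against 4, 0 features were called (0%), 79 were higher (0.519%) and 141 lower (0.926%) at an unadjusted p under 0.05, and the smallest adjusted p was 1.00. Zbtb16 held 55.6, 22.4 and 20.9 CPM after the second injury, a spread wider than that of the 1xCHI samples, and Ifit3 held 8.95, 6.66 and 11.0 CPM, below every 1xCHI sample.

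**Figure D5:**
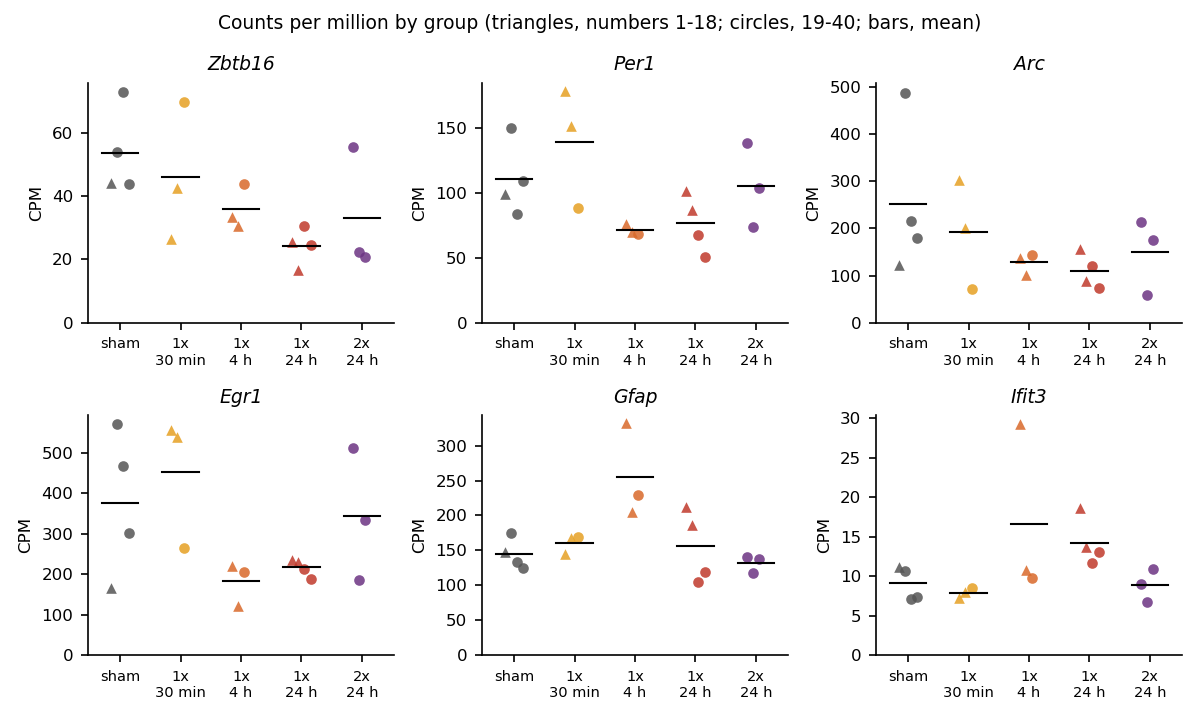
CPM (vertical axes, from 0) of 6 genes in sham, after 1xCHI (30 min, then 4 h, then 24 h) and after 2xCHI (24 h), with triangles for samples numbered 1 to 18, circles for 19 to 40 and bars for the mean. Zbtb16 means were 53.7 CPM in sham and 46.2, 35.9 and 24.3 CPM over the 3 times after 1xCHI. Its 30 min samples spread widely, at 26.3, 42.5 and 69.7 CPM. The highest Gfap value, 332 CPM, belongs to a 4 h sample.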

How the data were processed

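The authors deposited estimated counts per gene for 40 samples, neither normalized nor filtered (4.46% of values not whole). The count matrix was made by a sequencing company, the labels name the mm10 build, and the aligner is not given in the sources used here. Sample 30 was left out, as in the study. The study's rule, which drops a feature when over 4 samples have under 10 counts, was applied to the unrounded estimates of the 39 samples and left 15224 features, not the same number as in the study. Counts were then rounded, and edgeR 4.0.16 (TMM, quasi-likelihood test, Benjamini-Hochberg adjustment) was fitted in R 4.3.3 to all 12 groups. DESeq2 1.42.0 was the alternative. The study states no test per gene. CPM use the TMM-scaled library, and marker sums the summed counts. Named genes are the 12 with the smallest p in each direction with a full symbol, a mean of at least 1 CPM and no overlap, the most abundant and smallest-p members (each direction) of each list, the human transgenes and 5 cell markers. The members and lists were chosen with earlier results of these data known. Gene positions and lengths are GENCODE M21, matching 99.84% of identifiers. The fit was tested on simulated data. Further alternatives were library-size and median-of-ratios scaling, other filters, other sample sets, a sample-number covariate, leaving out each sample and, added later, a length trend, removal of 2 samples and rounding before the filter. P-values are two-sided. The 8 samples compared held 16976471 to 27859547 counts each. Results for some genes are not reported here. Genes sharing reads with close paralogs are uncertain.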

Additional observations from a re-analysis of the deposited data

Results flagged for a closer look

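Among the named genes, 176 groups of 4 samples were examined with Dixon's 95% limit for 4 values, and 9 held a sample that stood apart. Chance marks about 1 in 20. Sham 6 was highest for Cldn5 (37.2 CPM), Vwf (30.6 CPM) and Lyz2 (3.82 CPM). Sham 20 was highest for mt-Co1 (19340 CPM) and lowest for Rps29 (52.2 CPM), and sham 39 was highest for Ppp1r1b (250 CPM). Injured 26 was highest for Atp5b (961.5 CPM) and Grik3 (93.0 CPM), and injured 18 lowest for Arhgap23 (85.3 CPM). No cause was tested.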

How the results depend on the processing

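The count of 0 genes called for 1xCHI at 24 h against sham, and for members of the lists, held under every alternative run, including each sample left out. The features at an unadjusted p under 0.05 numbered 1636 when only the groups compared were fitted and 449 to 1910 when 1 sample was left out: 534 without injured 17, 449 without injured 18, 1910 without injured 26 and 536 without sham 35. Against 30 min, calls were 8 with DESeq2, 1 with median-of-ratios factors, with the sample-number covariate or with rounding before the filter, and 0 to 96 with 1 sample left out, and the unadjusted count was then 460 (without 30 min sample 13) to 3304 (without 27), with 519 without 30 min sample 14 and 634 without injured 26. Against 4 h, 1 was called with no low-count filter and 0 to 2 with 1 sample left out, and the unadjusted counts were 1120 and 493 to 1645, the highest without 4 h sample 36. For 2xCHI against 1xCHI the unadjusted count was 522 with no filter, 347 with only the groups compared and 143 to 416 with 1 sample left out (143 without 2xCHI sample 19, 378 without 21, 416 without injured 26). The cause was not tested. No paired analysis was possible because the sample numbers of the groups are all different.

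Of 88 genes followed, 74 kept their direction under every alternative. Among samples 19 to 40 only, the log2 fold change became -0.046 for Jund, -0.36 for Gfap, -0.036 for Stat2, -0.088 for Lyz2, -0.26 for Ptgds and 0.046 for App. With the covariate it became -0.29 for Gfap and -0.011 for Mbp. Less the length trend it became -0.058 for S100a10, -0.038 for C1qb, -0.089 for Il18, 0.10 for Gria2, -0.017 for Uchl1 and 0.055 for App. With 1 sample left out it ranged from -0.084 to 0.25 for Gfap, -0.069 to 0.15 for Mbp, -0.30 to 1.29 for Ppp1r1b and -0.24 to 0.36 for human MAPT, which was at -0.025 without sham 39 and injured 26. Of 800 list medians recomputed, 782 moved by less than the spread between replicates. The other 18 were 7 less the length trend (mitochondrial genome, nuclear respiratory, mitochondrial ribosomal, proteasome, metallothionein, interneuron at -0.144 and cytokine at -0.089), 5 among samples 19 to 40 (A2 type at -0.079, barrier, endothelial activation at 0.077, hemoglobin at -0.565, cholesterol), 2 with the covariate (interneuron at -0.051, metallothionein at 0.028), interneuron at 0.131 without sham 39 and injured 26, and the axonal list at -0.014 to 0.0015 without injured 26, sham 6 or sham 20. Depth limits the scarce genes named at under 3 CPM. The 4 animals a group limit single genes, also past a 2-fold change. Of the 32 features with an absolute log2 fold change above 1, none passed the adjusted test.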
